A study of Mus musculus with 12 samples.

Results

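Messenger RNA of 10 neuropeptide genes was examined in the frontal cortex of male C57BL/6 mice with and without the RNA editing enzyme ADAR2, which the gene Adarb1 encodes. The genes were Npy, Pdyn, Penk, Sst, Vip, Cck, Tac1, Tac2, Crh and Cort, and all 10 were among the 15191 genes that the authors listed. They were selected by name as the common peptide precursors of cortex, with the low p-values of Npy and Pdyn in the authors' gene table already known, so their values in that table are a description and no test. One group of 6 libraries came from mice labelled Adar2-/-/Gria2R/R and the other, also of 6, from litter mates labelled Adar2+/+ Gria2R/R. Both groups thus shared Gria2R, an allele whose own codon gives the arginine that ADAR2 editing otherwise makes in this AMPA receptor subunit, and no group with an unmodified Gria2 was compared. The age of the mice is not given in the sources used here.

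Neuropeptides are made as long precursors that enter the secretory pathway and are cut at pairs of basic residues by the prohormone convertases. Carboxypeptidase E then trims the basic residues, and peptidylglycine alpha-amidating monooxygenase amidates the C terminus of many of the peptides. The products are stored in dense-core vesicles, released mainly during strong firing, and act on G protein-coupled receptors. In cortex, Sst, Vip, Npy, Tac1, Crh and Cort are best known from subsets of inhibitory interneurons, while Cck is made by both interneurons and pyramidal cells. Pdyn and Penk, both opioid precursors, are also major products of striatal projection neurons, as is Tac1.

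Transcription of several of these precursors is textbook for its control by cyclic AMP through the cAMP response element. Short stretches of the promoters are shown only as a description of their letters, and no link to the differences below was tested. RefSeq promoter sequence on GRCm38.p6, from 250 bases before to 50 bases after each annotated start, was matched for 8 of the 10 genes, with 2 start sites for Pdyn and none for Penk and Crh. The letters searched were TGACG and its reverse complement CGTCA, the half-site, which overlaps the full palindrome TGACGTCA. Each stretch is 30 bases on the gene's own strand, and capitals mark the match.

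Sst, chr16:23890875-23890904, minus strand: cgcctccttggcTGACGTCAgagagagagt

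Vip, chr10:5639127-5639156, plus strand: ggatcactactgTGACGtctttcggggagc

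Cck, chr9:121495724-121495753, minus strand: cctgctggactgCGTCAgcactgggtaaac

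Tac1, chr6:7555006-7555035, plus strand: gctctacaggctCGTCAcgcctgagataaa

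Cort, chr4:149126764-149126793, minus strand: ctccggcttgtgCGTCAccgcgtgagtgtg

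Npy, chr6:49822680-49822709, plus strand, no match: agggcgctccataaaagcctgtgggcgacc

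Pdyn, chr2:129699939-129699968, minus strand, no match: ttgactgctctgccactcccccattggctc

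Of the 8 genes, with 9 promoters in all, 5 held a half-site in the window of 300 bases. Of all 32851 RefSeq promoters of that length, 20.8% did. Sst alone among the 8 genes held the full palindrome, 48 bases before its start, which 1.79% of all promoters held. Counts of genes and shares of promoters are unlike units, and the motif was chosen after these sequences were seen. Nothing is read from setting them side by side. The half-site of Vip began 79 bases before the start, that of Cck 47, and that of Cort 18. Tac1 had a match 43 bases before its start and another 197 bases before it. Npy, Pdyn and Tac2 held none of these letters in these windows, and for Npy and the upstream start of Pdyn the last 30 bases before the start are printed instead. A match is a description of the letters and was not tested for binding. Sequence outside these windows and variants of these letters were not searched, so a gene without a match may still have such an element.

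The authors' gene table gives the mean of normalized read counts over all libraries, a ratio and p-values. Its conditions are called A and B, with no genotype named for either. No gene's level was used to name them, so the direction of every whole-gene difference is given as A over B, on the log2 scale. There is no value per library in use here, so no SD, no interval and no count of mice showing a direction can be given. For reference, the authors' deposited table gave Adarb1 as 4.62-fold lower in A. Frontal cortex is a mixture of cells, and fewer cells making a peptide and less RNA per cell cannot be told apart.

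Npy and Pdyn were the peptide genes with the smallest p, both higher in A by about the same factor. Npy is the precursor of neuropeptide Y, a mostly inhibitory peptide. Its mean count was 1891 and its level 1.25-fold higher in A in the authors' deposited table, a log2 difference of 0.32 (p = 7.08e-05, adjusted p = 0.199). Pdyn is the precursor of the dynorphins, which act on the kappa opioid receptor. Its mean count was 948.6 and its level 1.26-fold higher in A in the authors' deposited table, a log2 difference of 0.33 (p = 0.000253, adjusted p = 0.457). Neither passed the adjusted threshold of 0.05 that is used throughout. These p-values, ranked 6 and 10 of all listed genes, are what drew attention to the pair.

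Of the 10 genes, 0 had an adjusted p under 0.05 by the authors' deposited table, in which 3 of 15191 genes (0.0197%) had one. Npy and Pdyn were the 2 with an unadjusted p under 0.05, against 1.86% of all genes, and nothing is read from this share since it singled them out. The difference was 1.2-fold or more for 3, namely Npy, Pdyn and Cort, against 8.4% of all genes. Higher in A were 5 and lower 5, where 52.9% of all genes were higher. The median over the 10 genes was 0.05, beside 0.01 over all genes, and without Npy and Pdyn it was -0.020.

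Penk, the other opioid precursor among these selected genes, was close to level. For Penk, from which the enkephalins are cut, the authors' deposited table gave a log2 difference of -0.03 (p = 0.553). Penk and Pdyn had nearly the same mean count, 920.5 and 948.6 in the authors' deposited table, so depth was alike for both. Whether their differences differ from each other was not tested. In GENCODE M21, Penk overlaps a transcript on the opposite strand, A830012C17Rik. Whether counting used strand is not given in the sources used here, so reads of that pair may not be separated.

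Sst and Cort encode the related peptides somatostatin and cortistatin, which share the somatostatin receptors. Sst had a mean count of 1477 and a log2 difference of 0.13 (p = 0.336) in the authors' deposited table. Cort, the rarest of the 10 transcripts, had a mean count of 45.9 and a log2 difference of -0.31 (p = 0.364) by the authors' deposited table. Cort thus differed by about as much as Npy, in the opposite direction, with a p far from the threshold. Of all listed genes, 6.03% differed by at least as much as Cort and 5.89% by at least as much as Npy. Among the 12289 genes with a mean count of at least 100, which leaves out Cort, 1.99% differed by at least as much as Npy and 1.73% by at least as much as Pdyn.

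Vip and Cck, the most abundant of the peptide transcripts by count, were close to level. Vip, the precursor of vasoactive intestinal peptide, marks interneurons that inhibit other interneurons. The authors' deposited table gave it a mean count of 2365 and a log2 difference of 0.10 (p = 0.148). Cck, the cholecystokinin precursor, had a mean count of 7232 and a log2 difference of -0.01 (p = 0.662) in the authors' deposited table. Its 2 conditions differed by 0.503%, the smallest difference among the 10 genes.

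Tachykinin and stress peptide genes had low counts. Tac1, the precursor of substance P and neurokinin A, had a mean count of 318.5 and a log2 difference of -0.03 (p = 0.959) in the authors' deposited table. Tac2, the neurokinin B precursor, had a mean count of 152.5 and the third largest difference towards A, 0.18 (p = 0.191), in the authors' deposited table. Crh, corticotropin-releasing hormone, had a mean count of 124.3 and a log2 difference of -0.07 (p = 0.689) in the authors' deposited table. For each of the 8 genes other than Npy and Pdyn the adjusted p was 1 in the authors' deposited table.

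**Figure D1:**
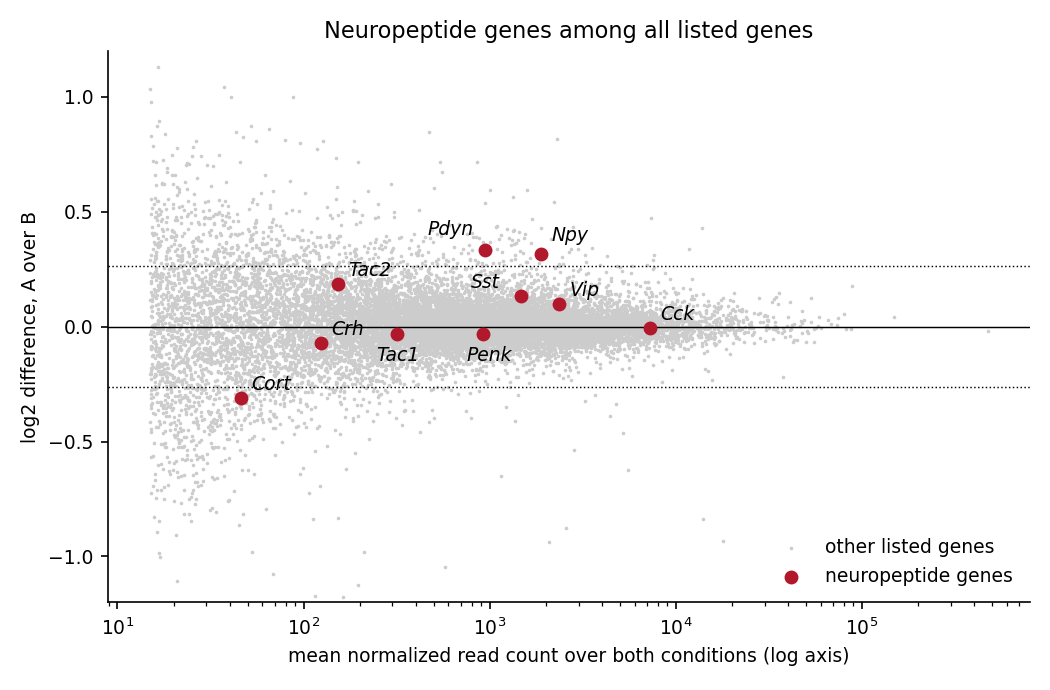
Log2 difference of A over B against the mean normalized read count (log axis) for each listed gene (grey) and for the 10 neuropeptide genes (red, named), with dotted lines at 1.2-fold; 23 genes lie beyond the plotted range of 1.2 either way. Npy and Pdyn (0.32 and 0.33) lie above the 1.2-fold line at counts where few genes do, and Cort (-0.31) lies below it at a low count, where many do.

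To order the precursors by level, mean counts were divided by the length of the merged exons in GENCODE M21. Cck came first with 6223 counts per kilobase, followed by Npy with 3341, Sst with 2048 and Vip with 1546. Npy thus stood above Vip per kilobase although its count was lower, since its transcript is the shortest of the 10 at 566 bases. Penk had 635.2 and Pdyn 397.6 counts per kilobase, and Tac1 259.0. The lowest were Tac2 with 173.0, Crh with 94.2 and Cort with 67.8, so the span from Cck to Cort was 91.8-fold by merged exons. The spread between libraries is not known, so neighbours in this order cannot be said to differ. GENCODE M21 is on another build than the mm9 that the submitters' processing notes name, and the lengths behind the authors' counts may have differed.

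**Figure D2:**
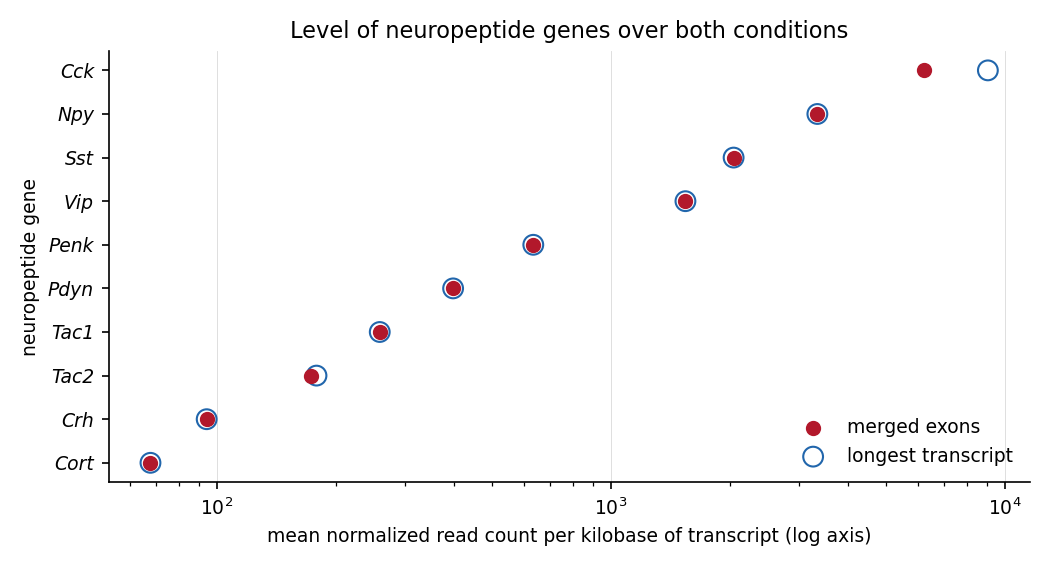
Mean normalized read count over both conditions per kilobase (log axis) for the 10 neuropeptide genes, with filled points for merged exons and open circles for the longest transcript of GENCODE M21; each point is 1 mean with no error available. Cck lies highest (6223 with merged exons) and Cort lowest (67.8), and the order is the same by either length.

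Exon usage was examined in the authors' second table, whose header names control and Adar2 and whose values were not used to select the genes. Values are given here as log2 of Adar2 over control and describe how much of a gene's reads fall in a bin, not the level of the gene. The table held 42 bins of the 10 genes, from 1 for Cort to 7 each for Vip and Tac1. By the authors' deposited table, 0 of the 42 had an adjusted p under 0.05, against 0.00738% of all bins. The unadjusted p was under 0.05 for 0 as well, against 1.67% of all bins. The smallest p of the 42 was 0.0938, for bin E007 of Tac1, with a log2 change of -0.15 in the authors' deposited table. Its mean count of 184.6 was the highest of the 7 bins of that gene in the authors' deposited table.

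The largest change in bin usage was -0.11 in Npy and 0.21 in Pdyn, and none of their bins had an unadjusted p under 0.05. The 4 bins of Npy ranged from -0.11 for E001, its bin of smallest p (0.239), to 0.05 for E004 in the authors' deposited table. E002, E003 and E004 of Npy carried mean counts of 951.1, 750.1 and 959.0 by the authors' deposited table, against 207.2 for E001, so the largest change sat in the bin with the fewest reads. Of the 5 bins of Pdyn, E001 held 74.8% of the listed bin counts and had a log2 change of -0.02. E002 of Pdyn had the gene's smallest p (0.131) and a log2 change of 0.21 at a mean count of 68.8 by the authors' deposited table, and E007 was at -0.16 with 68.3. Higher in the Adar2 condition were 2 of 4 bins in Npy and 3 of 5 in Pdyn. Usage of a bin is relative to the rest of its gene, so mixed signs are built into the measure and nothing is read from them.

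The 2 bins of Sst lay at 0.00 each, with mean counts of 1124 and 557.9 by the authors' deposited table, and the 4 bins of Cck between -0.01 and 0.04. The 7 bins of Vip ranged from -0.07 to 0.04, with the smallest p (0.515) in E001, which carried 37.6% of the listed bin counts. E001 of Tac1 stood at 0.26 with a mean count of 34.1 and p = 0.180, and E005 of Penk at 0.15 with 36.1 and p = 0.328, in the authors' deposited table. The 6 bins of Tac2 ranged from -0.11 to 0.10 with a smallest p of 0.460 in E003, those of Crh were -0.08 and 0.02 with p = 0.692, and the only listed bin of Cort was at 0.07 with p = 0.381, in the authors' deposited table. Of the 42 bins, 35 lay within 0.1 of zero, and the median size of the change was 0.05 where that of all bins was 0.07. Editing was listed at 143 sites, few beside the 15191 listed genes, and 0 of them lay in these 10 genes. With so few sites, nothing about the peptide genes is read from that count.

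**Figure D3:**
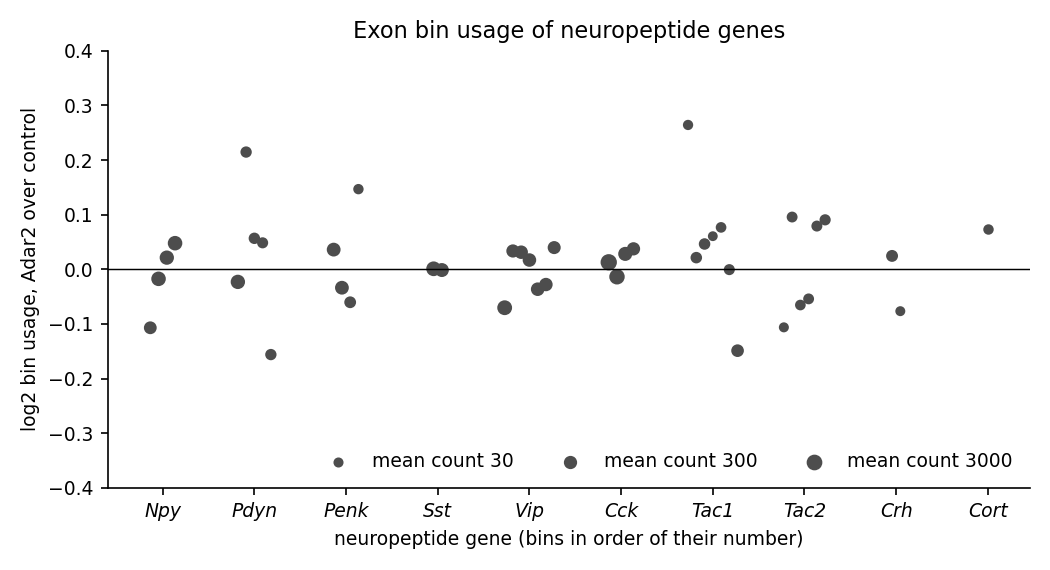
Log2 exon bin usage of Adar2 over control for each of the 42 listed bins of the neuropeptide genes, in order of bin number within a gene, with point area growing with the log of the bin's mean count. The bins of Cck, Sst and Vip lie between -0.07 and 0.04, and the values farthest from 0 (0.26 for Tac1 E001, 0.21 for Pdyn E002) belong to bins with mean counts of 34.1 and 68.8.

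Receptors that pair with these peptides gave 0 calls at an adjusted p under 0.05, beside 0.0197% of all listed genes. No receptor of the 10 peptides that is named had an unadjusted p under 0.05, beside 1.86% of all listed genes. Npy1r and Npy5r, receptors of neuropeptide Y, each had a log2 difference of -0.07 in the authors' deposited table. Npy2r, a largely presynaptic receptor of the same peptide, stood at 0.25 (p = 0.0850) in the authors' deposited table. Oprk1, the kappa receptor on which dynorphins act, had a mean count of 112.2 and a log2 difference of 0.33 (p = 0.564) by the authors' deposited table. The size equals that of Pdyn, with a p that is far from the threshold. Oprm1 and Oprd1, the mu and delta opioid receptors, were at 0.27 and 0.02 (authors' deposited table).

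For the somatostatin receptors Sstr1, Sstr2, Sstr3 and Sstr4 the authors' deposited table gave log2 differences of 0.12, 0.10, -0.15 and 0.03. Vipr1 and Vipr2, which bind vasoactive intestinal peptide and PACAP, were at 0.02 and -0.12 (authors' deposited table). Cckbr was at -0.06 and Crhr1 at -0.06, while Tacr1, the receptor of substance P, was at 0.25 on a mean count of 18.9 (authors' deposited table). No listed gene was matched to Tacr3. Over the whole receptor list, 36 of 54 genes were measured, 23 higher and 13 lower in A, with a median of 0.025. The unadjusted p was under 0.05 for 2 of the 36, beside 1.86% of all listed genes. Ntsr1, the neurotensin receptor of deep-layer pyramidal cells, had a mean count of 40.8 and a log2 difference of 0.999 (p = 0.0202, adjusted p = 1) by the authors' deposited table. Oxtr, the oxytocin receptor, had a mean count of 273.3 and a log2 difference of 0.35 (p = 0.0277, adjusted p = 1) by the authors' deposited table.

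Of the main enzymes that turn precursors into peptides, Cpe, Pam and Pcsk2 differed little between the conditions. Cpe, carboxypeptidase E, had a mean count of 50490 and a log2 difference of -0.02 in the authors' deposited table. Pam, the amidating enzyme, was at -0.04 and the convertase Pcsk2 at 0.05 (authors' deposited table). Pcsk1, the other neuronal convertase, had a mean count of 1943 and a log2 difference of -0.20 (p = 0.0433, adjusted p = 1) in the authors' deposited table. Of 19 processing enzymes and inhibitors 18 were measured, 6 higher and 12 lower in A, with a median of -0.015. The unadjusted p was under 0.05 for 1 of the 18, Pcsk1, beside 1.86% of all listed genes. Cpm, a membrane carboxypeptidase, had the next smallest p (0.115) at 0.21 (authors' deposited table). All 16 granin and dense-core vesicle genes were measured, 12 higher and 4 lower, with a median of 0.024. The unadjusted p was under 0.05 for 0 of the 16, beside the same 1.86% of all listed genes. The vesicle proteins Sv2c (0.25, p = 0.310) and Syt4 (0.07, p = 0.401) came first by p in the authors' deposited table.

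Among enzymes that degrade peptides, Enpep, aminopeptidase A, had a mean count of 184.2 and a log2 difference of -0.41 (p = 0.00225, adjusted p = 1) in the authors' deposited table. Crhbp, the binding protein of Crh, was at 0.11 (p = 0.148) in the authors' deposited table. All 14 genes of this list were measured, 10 higher and 4 lower in A, with a median of 0.050. Of 45 further precursors 13 were measured, 7 higher and 6 lower, with a median of 0.037. Adcyap1, the precursor of PACAP, had a mean count of 784.0 and a log2 difference of -0.29 (p = 0.0124, adjusted p = 1) in the authors' deposited table. Pnoc, the nociceptin precursor, was at 0.29 (p = 0.125) in the authors' deposited table. Across these 5 lists 97 genes were measured, with 0 adjusted p under 0.05, beside 0.0197% of all listed genes. The unadjusted p was under 0.05 for 5, 2 higher and 3 lower in A. The 5 are 5.15% of the 97, beside 1.86% of all listed genes, and no test of this share was run.

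**Figure D4:**
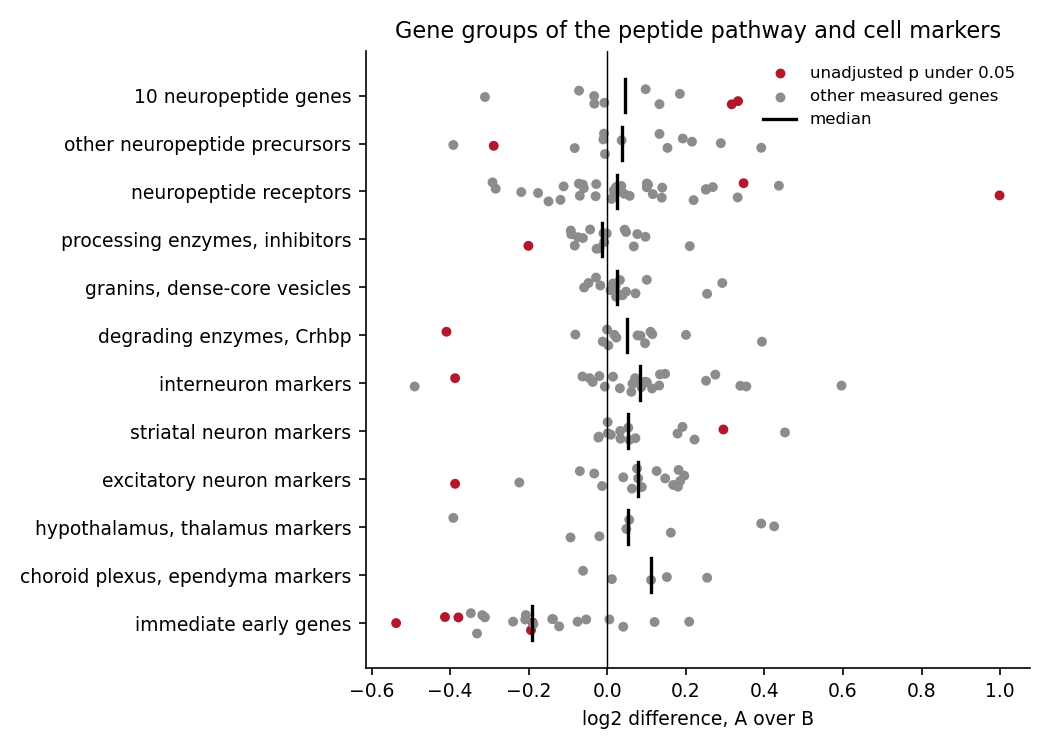
Log2 difference of A over B for each measured gene of the peptide pathway lists and cell marker lists (points, red where the unadjusted p is under 0.05), with each list's median as a black bar. Medians lie between -0.015 for processing enzymes and 0.11 for choroid plexus markers, apart from immediate early genes at -0.19, and some genes are in more than 1 list.

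Markers of the cells that make these peptides are given beside Npy and Pdyn. Of 25 measured cortical interneuron markers other than peptides, 18 were higher and 7 lower in A, with a median of 0.083. Nos1, the neuronal nitric oxide synthase that long-range interneurons make together with Npy and Sst, had a mean count of 1008 and a log2 difference of 0.60 (p = 0.0870) in the authors' deposited table. Pvalb, the marker of fast-spiking interneurons, was at 0.27 (p = 0.189) in the authors' deposited table. First by p in this list came 6330527O06Rik, the older symbol of Lamp5, at -0.39 (p = 0.0152, adjusted p = 1) in the authors' deposited table. Interneuron markers thus held both signs, with Nos1 farther from 0 than Npy. The part of interneurons in the value of Npy was not tested.

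Of 15 measured striatal projection neuron markers other than peptides, 13 were higher and 2 lower in A, with a median of 0.053. Ppp1r1b, which encodes DARPP-32, had a mean count of 637.6 and a log2 difference of 0.30 (p = 0.00242, adjusted p = 1) in the authors' deposited table. Rgs9, a regulator of G protein signalling enriched in striatum, was at 0.22 (p = 0.0845) in the authors' deposited table. No listed gene was matched to Drd2 or Isl1. Penk and Tac1, which striatal projection neurons as a class also make, were at -0.03 each, as given above. Nothing about Pdyn is read from the values of Penk and Tac1. The part of striatal cells in the value of Pdyn was not tested.

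The tissue label was set against markers of neighbouring regions too. All 17 cortical excitatory neuron markers were measured, 12 higher and 5 lower in A, with a median of 0.079 and a summed mean count of 48411. After 6330527O06Rik, which is in this list as well, Neurod6 had the smallest p (0.0661) at -0.22 (authors' deposited table). Of 15 hypothalamus and thalamus markers 8 were measured, with a summed mean count of 2117 and a median of 0.052. Pomc (-0.39, p = 0.179) and Tcf7l2 (0.42, p = 0.318) came first by p in that list, at mean counts of 35.4 and 50.2 in the authors' deposited table. Of 11 choroid plexus and ependyma markers 5 were measured, 4 higher and 1 lower, with a median of 0.11 and a summed mean count of 325.1. Ttr, the transthyretin of choroid plexus, was at 0.15 on a mean count of 34.7, and Kl at 0.11 (authors' deposited table). The 15 measured striatal projection neuron markers given above had a summed mean count of 19475. The lists differ in size and in their genes, so these sums do not measure how much of each region is present.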

How the data were processed

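RNA from 12 frontal cortex libraries, 6 per genotype, was made into stranded, rRNA-depleted libraries per the labels' protocols. Tools named in the submitters' processing notes are HTSeq, DESeq, TopHat2 2.0.6 and Bowtie2, with the build mm9. Only the authors' comparisons were used: no counts per library, and so no depth per library, enter, and the numbers of replicates act only through the deposited p-values. The labels do not say outright that every library is a different animal.

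The deposited gene table holds mean normalized counts (a signal in the form DESeq writes, per the file headers), the ratio of B over A and its log2 value, with raw and adjusted p-values. Its 2 columns with the mean of A and of B were left out, as their names match no label of either group. A log2 difference here is the deposited log2 value with its sign turned. Listed genes had mean counts of 15.0 or more. The exon table holds the authors' mean bin counts (a signal), log2 ratio of control over Adar2, p-values and a dispersion score, not used here. Listed bins had means of 20.0 or more. From the editing table, with the deposited percent of edited reads, only gene names were used.

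No test was run beyond the deposited ones. Bins were matched to symbols by Ensembl ID for 10 of 10 genes. List genes were matched by symbol or RefSeq synonym. The genes, lists and rules were chosen with earlier results of these data known. Named were the 10 genes with their smallest-p bins, the 2 genes of smallest p in each other list, and receptors and enzymes paired with the peptides. Penk E005, Pdyn E007, Tac1 E001 and other further bins, and Pvalb and Bdnf, were named after their values were seen. The motif and the promoter stretches shown were likewise chosen after the tables and promoter sequences had been seen. Adjustment and Simes p-values, used for the alternatives, were checked on simulated data (Python 3.11.15, numpy 2.4.6, pandas 2.3.3).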

Additional observations from a re-analysis of the deposited data

How the results depend on the processing

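The counts of 0 called genes among the 10, 0 among the 97 pathway genes and 0 among the 42 bins did not change with Benjamini-Hochberg adjustment over the listed rows alone, with an adjusted p under 0.1, or with a minimum mean count of 100 for genes or 50 for bins. The gene counts also stayed at 0 with Bonferroni adjustment, and the bin count with a Simes p per gene. Npy had the smallest readjusted p of the 10 genes, 0.179 over the listed genes and 0.218 with the minimum mean count. Centring on the median of all genes, or of genes with a mean count of at least 100, shifted each log2 difference by 0.01 and reversed none of the 10. The median over the 10 genes was 0.05, it turned to -0.020 without Npy and Pdyn, and the mean weighted by mean count was 0.081. Dividing by the longest transcript instead of merged exons, an alternative chosen after seeing the data, left the order of levels as given. It put Cck at 9051 counts per kilobase and left Cort at 67.8, so the span from Cck to Cort was wider. Differences of weakly expressed genes such as Cort, Tacr1 and Ntsr1 are limited by depth. No paired analysis was possible because the tables hold no values per library, and leaving out single libraries was not possible for the same reason.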

Other observations

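Genes of the immediate early list, many of which neurons transcribe within minutes of activity, mostly leaned the other way from Npy and Pdyn. Of 22 measured, 18 were lower and 4 higher in A, with a median of -0.19, and 0 had an adjusted p under 0.05 in the authors' deposited table, while 5 had an unadjusted p under 0.05, all lower in A. Of all listed genes, 1.86% had an unadjusted p under 0.05 and 52.9% were higher in A. Dusp1, a phosphatase of MAP kinases, had a mean count of 248.3 and a log2 difference of -0.38 (p = 0.00104, adjusted p = 0.971) in the authors' deposited table. Arc, a synaptic immediate early gene, had a mean count of 2844 and a log2 difference of -0.54 (p = 0.00333, adjusted p = 1) in the authors' deposited table. Bdnf, a neurotrophin stored with peptides in dense-core vesicles, had a log2 difference of -0.12 in the authors' deposited table. Whether these genes and the peptide genes vary together was not tested.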
